A study of Homo sapiens with 12 samples.

Results

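The subject here is the set of genes on which the BET inhibitor JQ1 acted differently in Kelly and in BE(2)-C, 2 established lines of human neuroblastoma cells. For each probe set the log2 change from DMSO to JQ1 in Kelly was subtracted from the same change in BE(2)-C, and the difference was tested with limma over all 12 arrays. This line difference passed (limma adjusted p under 0.05) in 147 of 44988 probe sets that name 1 gene, or 0.327% of them. They belong to 116 of the 18132 genes measured: in 82 genes (0.452%) the change was higher in BE(2)-C and in 34 (0.188%) it was lower, and in 0 genes did probe sets pass both ways. At an unadjusted p under 0.05 the count was 4481 probe sets. The 4 groups were Kelly cells with DMSO, Kelly cells with 1 µM JQ1, BE(2)-C cells with DMSO and BE(2)-C cells with 1 µM JQ1, each kept 24 h and hybridized to 3 Affymetrix PrimeView arrays. DMSO is the solvent and serves as the vehicle control. Each line is a single established culture from a neuroblastoma, so a difference between them is a difference between 2 lines and not between kinds of tumour. The labels name triplicates without saying whether they were separate cultures, and the p-values therefore cover only how these samples vary, and that variation may be technical.

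JQ1 is a thieno-triazolo-diazepine that fills the acetyl-lysine pocket of BET bromodomain proteins, readers of acetylated histones that help RNA polymerase leave the promoter. Genes under large enhancers, among them many that define a cell's identity, are known to be sensitive to such compounds, so that different cell types can lose different transcripts. Neuroblastoma arises from sympathetic precursors, and its cells carry parts of the noradrenergic programme: enzymes that make and break down catecholamines, neuropeptides, receptors of transmitters and the GDNF receptor RET. Levels are given below as log2 of the deposited intensity, effects as log2 JQ1 minus DMSO within a line, and the line difference as the BE(2)-C effect minus the Kelly effect. A positive line difference thus means a deeper fall in Kelly or a larger rise in BE(2)-C.

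The 9 neuroblast markers measured lay above the median of all probe sets in every group, with DMSO levels from 9.25 for TH in Kelly to 13.89 for CHGA in Kelly. Of 13 haematopoietic markers 10 to 12 and of 12 epithelial markers 8 lay below that median in each group. Of 15 Schwann cell and fibroblast markers 9 to 11 did so; their summed level was 11.06 to 11.66 in BE(2)-C and 9.71 to 10.13 in Kelly. The array medians, 61.4 to 67.3 intensity units, were nearly equal, while the signal of added hybridization controls ranged from 9.94 to 13.65. This signal changed with JQ1 by 1.04 in Kelly and by 0.21 in BE(2)-C, a line difference of -0.83 (two-sided exact permutation p = 0.565 over 400 assignments within lines). With this signal as a covariate 1029 probe sets passed in place of 147, all of the 147 among them, so the length of the list depends on that choice. The poly-A spike Dap read 4.55 in BE(2)-C DMSO array 1 against 7.29 to 8.77 in the other arrays. The signal of the 3' minus that of the 5' ACTB control probe sets, a measure of RNA integrity, was 2.22 in Kelly DMSO array 3 and 2.24 in Kelly JQ1 array 3, against 1.24 to 1.65 in the other Kelly arrays and 0.63 to 1.24 in BE(2)-C; its part in the results was not tested. The precision is limited by the number of arrays: the median standard error (SE) of a line difference was 0.30 over all probe sets and 0.184 to 0.531 in the members.

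Most of the genes moved in 1 line and did not pass in the other. In 57 genes JQ1 lowered the level in Kelly and did not pass in BE(2)-C, in 27 it lowered the level in BE(2)-C and did not pass in Kelly, in 17 it raised the level and passed in BE(2)-C alone and in 6 in Kelly alone. Another 7 fell and 2 rose in both lines by different amounts, and 0 passed in opposite directions. The line difference itself carries each of these calls; the labels of the 6 kinds are a description made from the tests within lines. As background, 353 genes (1.95%) rose and 1046 (5.77%) fell in Kelly, and 411 (2.27%) rose and 507 (2.8%) fell in BE(2)-C; with quantile normalization the Kelly counts were 719 and 1140. Every member differed by at least 1.09 on the log2 scale, so all 147 probe sets were past 2-fold. In bulk RNA fewer cells with a transcript and less transcript per cell cannot be told apart.

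**Figure D1:**
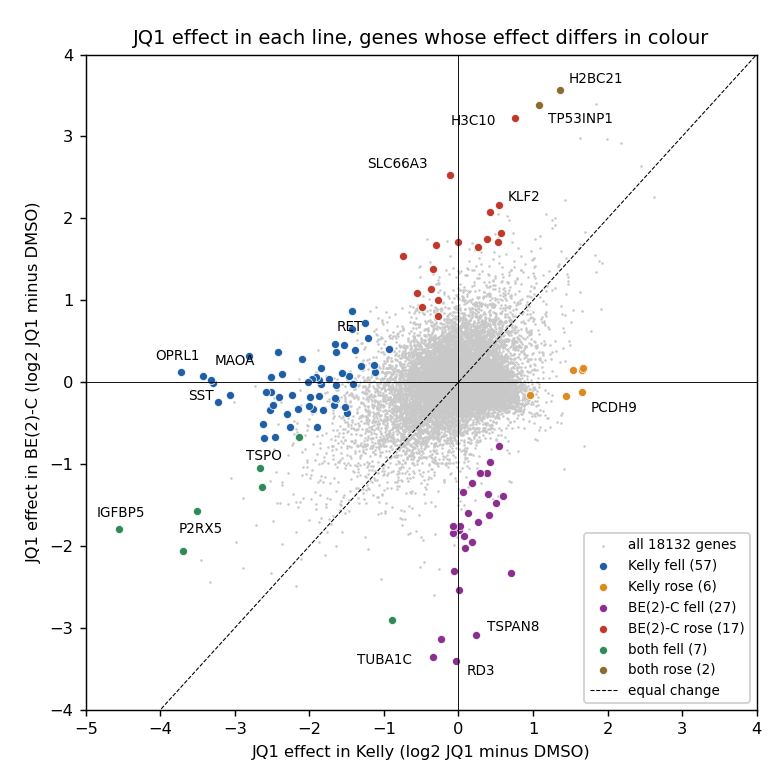
JQ1 effect in Kelly (x axis) against the effect in BE(2)-C (y axis), both log2 JQ1 minus DMSO and means of 3 arrays a group, for the 18132 genes by their brightest probe set (grey) and the 116 members coloured by the line in which they passed. The 57 blue points lie along the left arm of the horizontal axis and the 27 purple points along the lower arm of the vertical axis, away from the dashed line of equal change.

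The effects can be set beside the DMSO levels. The 57 genes that fell in Kelly had a median DMSO level of 8.60 in Kelly and 5.76 in BE(2)-C, and 29 of them were dim in BE(2)-C, meaning below the median of all probe sets (6.01 to 6.06) with DMSO and with JQ1. The 27 that fell in BE(2)-C had medians of 5.16 in Kelly and 7.79 in BE(2)-C, and 17 were dim in Kelly. The other 28 and 10 were above that limit in both lines in at least 1 group. The 17 that rose in BE(2)-C started from similar medians, 5.77 in Kelly and 6.08 in BE(2)-C. The limit was chosen after the values were seen, and the probe sets that the array's makers placed as background averaged 4.94 to 5.67, so an effect near 0 in a dim line is an effect on little or no measured signal. These levels come from the same DMSO arrays as the effects, and no test was made between them.

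**Figure D2:**
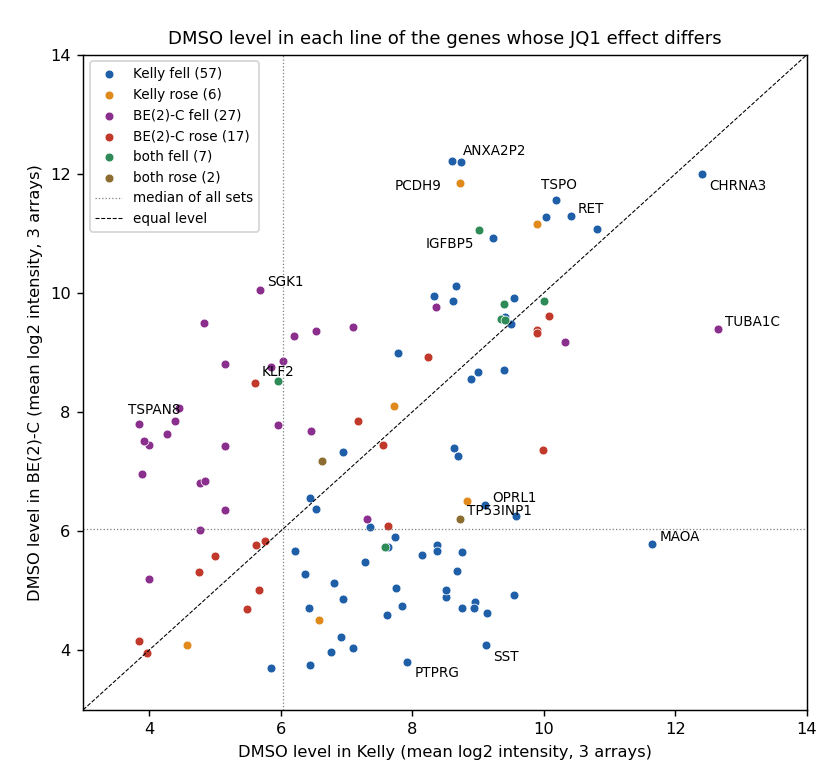
DMSO level in Kelly (x axis) against the DMSO level in BE(2)-C (y axis), mean log2 intensity of 3 arrays, for the 116 members coloured as in the plot of effects; dotted lines mark the median of all probe sets. Many blue points (fell in Kelly) gather at the lower right with SST, PTPRG and MAOA, and many purple points (fell in BE(2)-C) at the upper left with TSPAN8 and SGK1, while TUBA1C lies at the far right.

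Among the deepest falls in Kelly that did not pass in BE(2)-C were those of genes that neurons use to signal. OPRL1, the receptor of the peptide nociceptin, lay at 9.09, 8.81 and 9.41 in the 3 Kelly DMSO arrays and at 5.58, 5.45 and 5.08 with JQ1. The BE(2)-C DMSO arrays read 6.63, 6.17 and 6.51 and the JQ1 arrays 6.42, 6.49 and 6.77. The Kelly groups were thus far apart and the BE(2)-C groups overlapped. Its effects were -3.73 (SE 0.20, limma adjusted p = 3.38e-06) and 0.12, and the line difference of 3.85 (SE 0.29, limma adjusted p = 0.000626) was the highest of the set; its other, dimmer probe set had a line difference of -0.39 that did not pass. SST encodes somatostatin, a peptide that restrains hormone release. Its levels in Kelly were 9.30, 9.47 and 8.60 with DMSO and 6.26, 5.76 and 5.07 with JQ1. In BE(2)-C they were 4.06, 4.22 and 4.00 (DMSO) and 4.24, 4.10 and 4.16 (JQ1), below the mean of the background probe sets, and the line difference was 3.5 (SE 0.40, limma adjusted p = 0.00347). CARTPT, the precursor of another neuropeptide, went from 9.14, 9.20 and 8.50 to 5.75, 5.75 and 5.65 in Kelly and stayed between 4.46 and 4.85 in BE(2)-C, a line difference of 2.99 (SE 0.25, limma adjusted p = 0.00117). Of 26 neuropeptide precursors measured these were the 2 members. In each line 5 of the 26 fell, against 5.77% of all genes in Kelly and 2.8% in BE(2)-C. The median effects of all 26 were 0.01 in Kelly and -0.07 in BE(2)-C, against 0.08 and -0.01 over all genes.

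Catecholamine genes gave 2 members of 16 measured. MAOA, the mitochondrial enzyme that oxidises noradrenaline, serotonin and dopamine, read 11.86, 12.02 and 11.06 in the Kelly DMSO arrays and 8.73, 8.41 and 7.81 in the JQ1 arrays. The BE(2)-C readings were 6.07, 5.64 and 5.63 (DMSO) and 5.74, 5.85 and 5.84 (JQ1), most of them below the median of all probe sets. A 10.0-fold loss in Kelly thus stood beside an effect of 0.03 in a line with little of the transcript, a line difference of 3.36 (SE 0.38, limma adjusted p = 0.00347). Of its 4 probe sets 3 passed. TH, the rate-limiting enzyme of catecholamine synthesis, fell in both lines, by 3.69 in Kelly and by 2.06 in BE(2)-C from like DMSO levels of 9.35 in Kelly and 9.56 in BE(2)-C. Its line difference of 1.63 (SE 0.25, limma adjusted p = 0.0184) rests on 1 of 3 probe sets, and the brightest had 0.42 (adjusted p = 0.592). In the catecholamine list 6 genes fell in Kelly and 5 in BE(2)-C (over all genes 5.77% and 2.8%), and the median line difference was 0.04. Averaging all probe sets of the gene ended the call (limma adjusted p in brackets) of TH (0.0992). Calls were lost with 1 array left out (limma adjusted p in brackets) for TH without Kelly DMSO array 1, BE(2)-C DMSO arrays 2 and 3 and BE(2)-C JQ1 arrays 1, 2 and 3 in turn (up to 0.0711).

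Further members encode receptors, channels and proteins of the synapse. HTR3A, a serotonin-gated channel, had DMSO levels of 8.38 in Kelly and 5.66 in BE(2)-C, where it was dim. Its effects were -2.62 in Kelly and -0.51 in BE(2)-C, and its line difference was 2.11 (SE 0.35, limma adjusted p = 0.0311). P2RX5, an ATP-gated channel, fell in both lines from DMSO levels of 9.41 in Kelly and 9.55 in BE(2)-C, to 5.90 and 7.97 with JQ1, and its line difference was 1.93 (SE 0.24, limma adjusted p = 0.00567). CHRNA3, a subunit of the nicotinic acetylcholine receptor of sympathetic ganglia, read 12.50, 12.56 and 12.15 in the Kelly DMSO arrays and 11.77, 12.20 and 12.02 in those of BE(2)-C, bright in both, with effects of -1.13 in Kelly and 0.21 in BE(2)-C, a difference of 1.34 (SE 0.22, limma adjusted p = 0.0286). CACNA2D2, an auxiliary subunit of calcium channels, had effects of -2.30 in Kelly and -0.39 in BE(2)-C and a difference of 1.91 (SE 0.32, limma adjusted p = 0.0302). PRIMA1, which anchors acetylcholinesterase in the membrane, fell by 2.63 in Kelly and by 1.28 in BE(2)-C. RIMBP2, a scaffold of the presynaptic release site, had effects of -2.10 in Kelly and 0.28 in BE(2)-C. Those of DOC2B, a calcium sensor of exocytosis, were -2.00 in Kelly and -0.29 in BE(2)-C. Over all 12 arrays their probe sets averaged 7.52 (RIMBP2) and 5.40 (DOC2B). SCN9A, a sodium channel of sympathetic and sensory neurons, rose in BE(2)-C by 1.75 from 5.32. P2RY6, a receptor of uridine diphosphate, fell by 2.91 in BE(2)-C and by 0.89 in Kelly, a difference of -2.02 (SE 0.30, limma adjusted p = 0.0151). The list of transmitter receptors held 3 members of 39 measured, HTR3A, OPRL1 and P2RX5, and its median line difference was -0.22 against -0.06 over all genes. In that list 8 genes fell in Kelly and 6 in BE(2)-C, against 5.77% and 2.8% of all genes. CHRNA3 was the 1 member of 25 ligand-gated channels of transmitters. CACNA2D2 and SCN9A were the 2 members of 21 voltage-gated calcium and sodium channels. Of all genes, 0.452% were members with a higher change in BE(2)-C and 0.188% with a lower one. The values of SCN9A and P2RY6 were not from the brightest probe set, which gave a line difference of 0.84 for SCN9A (limma adjusted p = 0.546) and -0.90 for P2RY6 (limma adjusted p = 0.432). The second, dimmer probe set gave 0.53 for HTR3A, 0.53 for P2RX5, 0.61 for CACNA2D2 and 0.65 for RIMBP2. None of these passed (limma adjusted p of 0.42 to 0.542). Of the 4 CHRNA3 probe sets 1 passed, and the others had line differences from -0.29 to 2.22. With the mean of the probe sets the calls ended (limma adjusted p in brackets) for PRIMA1 (0.154), DOC2B (0.455), SCN9A (0.224) and P2RY6 (0.0563). Leaving out 1 array ended the call (limma adjusted p in brackets) of PRIMA1 without Kelly DMSO array 1, BE(2)-C DMSO arrays 2 and 3 and BE(2)-C JQ1 arrays 1, 2 and 3 in turn (up to 0.0806) and of P2RY6 without BE(2)-C DMSO arrays 2 and 3 and BE(2)-C JQ1 arrays 1 and 2 in turn (up to 0.0685). Most single omissions ended the calls of HTR3A (all but Kelly DMSO array 3, Kelly JQ1 array 1 and BE(2)-C DMSO array 1, limma adjusted p up to 0.109), CHRNA3 (all but Kelly DMSO array 3, Kelly JQ1 array 3 and BE(2)-C DMSO array 1, limma adjusted p up to 0.109) and CACNA2D2 (all but Kelly DMSO array 3, Kelly JQ1 arrays 2 and 3 and BE(2)-C DMSO array 1, limma adjusted p up to 0.107). Omitting any of most single arrays ended the calls of RIMBP2 (all but Kelly DMSO array 3, Kelly JQ1 array 1 and BE(2)-C DMSO arrays 1 and 3, limma adjusted p up to 0.0881), DOC2B (all but Kelly DMSO array 3, Kelly JQ1 array 1 and BE(2)-C JQ1 array 1, limma adjusted p up to 0.119) and SCN9A (all but Kelly DMSO array 3, limma adjusted p up to 0.162).

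**Figure D3:**
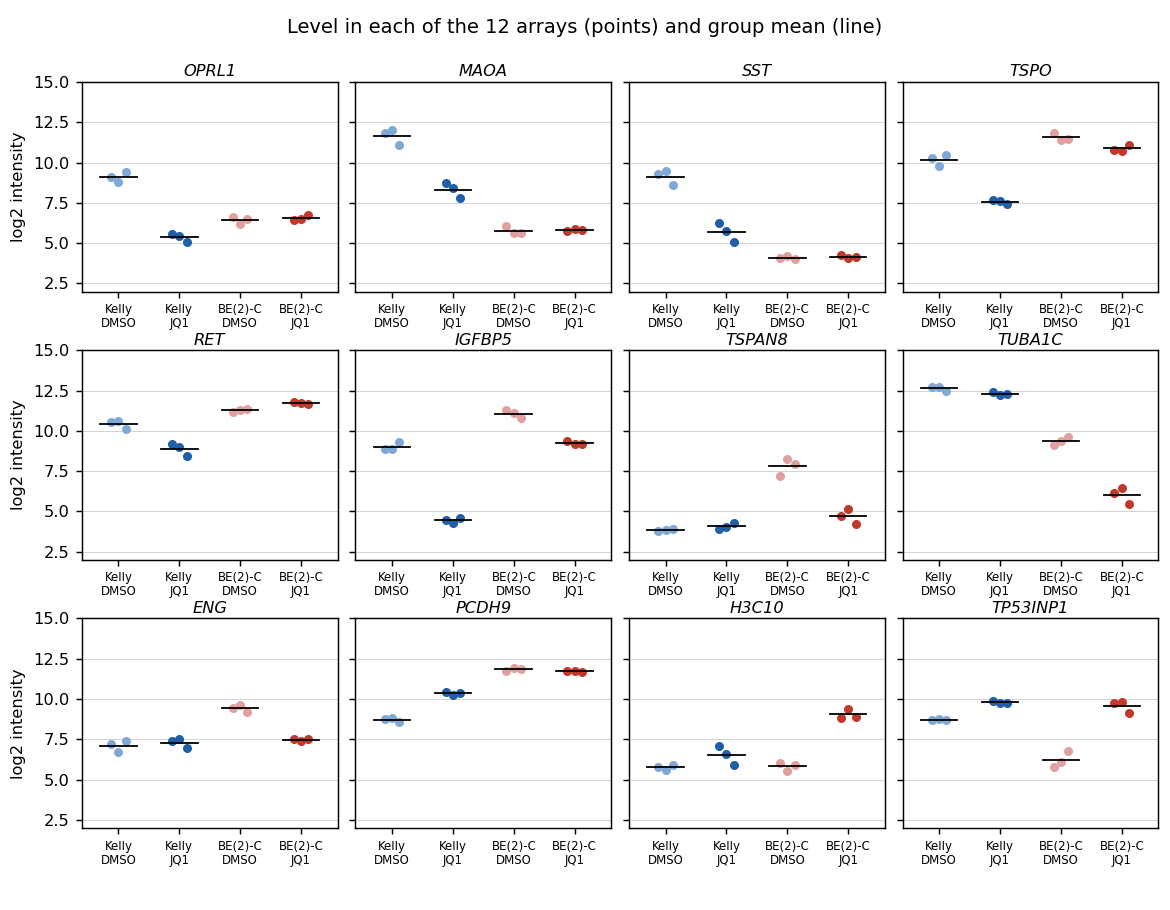
Level (log2 intensity) of 12 member genes in each of the 12 arrays: 3 points a group for Kelly and BE(2)-C with DMSO and with JQ1, with a line at the group mean, all on the same y axis. OPRL1, MAOA, SST, TSPO, RET and IGFBP5 drop further in Kelly, TSPAN8, TUBA1C and ENG drop in BE(2)-C, PCDH9 rises in Kelly, and H3C10 and TP53INP1 rise further in BE(2)-C.

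RET, the receptor tyrosine kinase of the GDNF family of neurotrophic factors, was bright in both lines and moved in Kelly. The Kelly DMSO arrays read 10.53, 10.59 and 10.10 and the JQ1 arrays 9.20, 8.99 and 8.42. The corresponding BE(2)-C readings were 11.18, 11.30 and 11.37 (DMSO) and 11.77, 11.74 and 11.68 (JQ1). Every BE(2)-C JQ1 array was above every DMSO array, although that effect of 0.45 did not pass. Its line difference came to 1.99 (SE 0.28, limma adjusted p = 0.0131), and 2 of its 3 probe sets passed. GFRA1, the co-receptor that presents GDNF to RET, fell by 1.73 in Kelly from 6.92, while in BE(2)-C it stayed near 4.23, below the median; its difference was 1.77 (SE 0.30, limma adjusted p = 0.0341). These were the 2 members among 31 receptor tyrosine kinases and ligands, of which 7 fell in Kelly and 0 in BE(2)-C. Over all genes 5.77% fell in Kelly and 2.8% in BE(2)-C. The median line difference of the 31 was 0.06, against -0.06 over all genes. EFNB3, a membrane ligand of Eph receptors, had effects of -1.49 in Kelly and -0.38 in BE(2)-C and a difference of 1.11 (SE 0.20, limma adjusted p = 0.0447), and EFNB2, a ligand of the same family, went the other way, as given with the rises in Kelly. Read from the brightest probe set instead, the line difference was 0.09 for GFRA1 (limma adjusted p = 0.929). Averaging all probe sets of the gene ended the call (limma adjusted p in brackets) of EFNB3 (0.691). Calls were lost with 1 array left out (limma adjusted p in brackets) for RET without Kelly DMSO array 1, BE(2)-C DMSO array 2 and BE(2)-C JQ1 arrays 1 and 2 in turn (up to 0.0573). With most arrays omitted in turn the calls ended for GFRA1 (all but Kelly DMSO array 3 and BE(2)-C DMSO array 1, limma adjusted p up to 0.125) and EFNB3 (all but Kelly DMSO array 3, limma adjusted p up to 0.161).

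IGFBP5, which holds insulin-like growth factors outside the cell, fell in both lines and furthest in Kelly. The 3 Kelly arrays went from 8.89, 8.89 and 9.28 to 4.5, 4.28 and 4.61, and the 3 BE(2)-C arrays from 11.27, 11.09 and 10.82 to 9.39, 9.21 and 9.21. The groups did not overlap in either line, and the line difference was 2.77 (SE 0.24, limma adjusted p = 0.00117) in this, the brightest of 6 probe sets. The other 5 had line differences from -1.21 to 0.08, and with the mean of the 6 the call ended (limma adjusted p = 0.976), so the difference is that of 1 probe set. IGFBP3, which binds the same growth factors, was read from its fainter probe set at DMSO levels of 5.15 in Kelly and 6.36 in BE(2)-C and fell by 1.71 in BE(2)-C, a difference of -1.96 (SE 0.28, limma adjusted p = 0.0122). The 2 were the only members of 17 genes of the insulin-like growth factor axis, 1 in each direction. In the brightest probe set, not the one read here, the line difference was -0.63 for IGFBP3 (limma adjusted p = 0.428). Leaving out 1 array ended the call (limma adjusted p in brackets) of IGFBP3 without BE(2)-C DMSO array 2 (0.0514) and BE(2)-C JQ1 array 2 (0.0523).

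TSPO, the translocator protein of the outer mitochondrial membrane, showed a like pattern in a transcript that both lines express. Its brightest probe set read 10.26, 9.80 and 10.47 in Kelly with DMSO and 7.65, 7.61 and 7.43 with JQ1. In BE(2)-C it read 11.83, 11.41 and 11.43 (DMSO) and 10.78, 10.73 and 11.11 (JQ1), a smaller shift that did not pass. This gave a line difference of 1.93 (SE 0.28, limma adjusted p = 0.0138); its other 2 gave 3.15 and 0.05, so the probe sets disagree. The annexins ANXA2 and ANXA11, calcium-dependent binders of membrane phospholipids, had effects of -2.41 and -2.25 in Kelly, and of 0.37 and -0.54 in BE(2)-C. ANXA2 has the processed pseudogene ANXA2P2, whose probe set gave a line difference of 3.14 (SE 0.53, limma adjusted p = 0.0319). The 3 passing ANXA2 probe sets (2.40 to 3.11) and that of ANXA2P2 are of the kind that can bind several near-identical transcripts, so the 2 genes cannot be told apart, and the brightest ANXA2 probe set did not pass (1.67, adjusted p = 0.281). Calls were lost with 1 array left out (limma adjusted p in brackets) for TSPO without Kelly DMSO array 1 (0.0567) and BE(2)-C DMSO array 2 (0.0613). Quantile normalization ended the TSPO call too (limma adjusted p = 0.0679). Less stable were the calls lost with most single arrays omitted, those of ANXA2 (all but Kelly DMSO array 3 and BE(2)-C DMSO array 1, limma adjusted p up to 0.122), ANXA11 (all but Kelly DMSO array 3 and Kelly JQ1 arrays 1 and 3, limma adjusted p up to 0.157) and ANXA2P2 (all but Kelly DMSO array 3, Kelly JQ1 array 1 and BE(2)-C DMSO array 1, limma adjusted p up to 0.11).

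The promoters of 4 members are printed, as 1 example each of a fall in Kelly from a transcript of that line (SST), a fall in Kelly of a shared transcript (TSPO), a fall in BE(2)-C (TUBA1C) and a rise in BE(2)-C (H3C10). Each is the 250 bases before the gene's start in RefSeq (GRCh38.p14), written 5′ to 3′ on the gene's strand, with matches to the motifs searched in capitals. SST lies at chr3:187670395-187670644 (minus strand), TSPO at chr22:43151309-43151558 (plus strand), TUBA1C at chr12:49227676-49227925 (plus strand) and H3C10 at chr6:27809801-27810050 (plus strand).
SST: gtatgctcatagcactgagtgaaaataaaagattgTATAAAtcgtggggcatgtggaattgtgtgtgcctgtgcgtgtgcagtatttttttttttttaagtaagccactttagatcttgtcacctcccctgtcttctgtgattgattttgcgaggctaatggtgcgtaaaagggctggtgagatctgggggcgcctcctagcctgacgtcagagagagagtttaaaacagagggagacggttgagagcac
TSPO: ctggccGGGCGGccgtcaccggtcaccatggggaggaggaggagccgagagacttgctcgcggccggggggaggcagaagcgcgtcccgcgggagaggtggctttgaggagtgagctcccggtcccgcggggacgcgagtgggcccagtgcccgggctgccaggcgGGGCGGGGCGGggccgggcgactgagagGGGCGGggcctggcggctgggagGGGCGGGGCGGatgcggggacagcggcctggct
TUBA1C: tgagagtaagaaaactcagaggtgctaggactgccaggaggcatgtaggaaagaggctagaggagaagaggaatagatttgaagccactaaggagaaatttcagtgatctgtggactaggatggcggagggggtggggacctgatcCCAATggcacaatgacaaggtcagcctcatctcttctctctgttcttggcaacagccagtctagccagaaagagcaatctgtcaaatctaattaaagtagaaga
H3C10: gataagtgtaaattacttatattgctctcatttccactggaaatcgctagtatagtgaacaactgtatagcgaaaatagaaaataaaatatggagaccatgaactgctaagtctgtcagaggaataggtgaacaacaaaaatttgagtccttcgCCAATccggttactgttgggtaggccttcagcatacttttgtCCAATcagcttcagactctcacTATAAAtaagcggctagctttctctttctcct
The capitals mark 1 TATAAA in SST, 6 copies of the GC box GGGCGG in TSPO (the neighbouring copies share bases), 1 CCAAT in TUBA1C, and 2 CCAAT and 1 TATAAA in H3C10, where TATAAA begins 32 bases before the start. In the SST window the match begins 215 bases before the start. Motifs were searched on both strands in 14425 measured genes with a promoter entry, 87 of them members. TATAAA was found in 8.77% of all promoters, in 6 of 63 (9.52%) whose line difference was higher in BE(2)-C and in 6 of 24 (25%) whose difference was lower. CCAAT was found in 34.6%, 22.2% and 41.7%, GGGCGG in 57.2%, 60.3% and 58.3%, and TGANTCA, the AP-1 motif, in 5.07%, 3.17% and 0.0%. CACGTG, the E-box that MYC family proteins bind, was found in 7.83% of all promoters, 7.94% of the higher and 8.33% of the lower members. These shares are descriptions without a test, and a match is not evidence of binding.

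A further 8 genes fell in Kelly and were dim in BE(2)-C. HS6ST2 and HS3ST4, which add sulfate to heparan sulfate chains, fell by 2.59 and fell by 2.52, respectively, with line differences of 2.47 (SE 0.31, limma adjusted p = 0.00674) and 2.58 (SE 0.29, limma adjusted p = 0.00347). HS6ST2 passed in 1 of its 4 probe sets, all of the same sign. TNS3, a tensin of focal adhesions, went from 8.93 to 5.65 in Kelly and lay at 4.72 in BE(2)-C, a difference of 3.28 (SE 0.38, limma adjusted p = 0.00347) in 1 of its 3 probe sets. TESC, the calcium-binding protein tescalcin, had a difference of 2.47 (SE 0.27, limma adjusted p = 0.00344). TG, the thyroid hormone precursor thyroglobulin, passed in 3 of 3 probe sets, with 2.40 (SE 0.22, limma adjusted p = 0.00117) in the brightest. TCEA3, a transcription elongation factor of the TFIIS family, passed in 3 of 5, with 2.91 (SE 0.31, limma adjusted p = 0.00246) in the brightest of these 3, while the brightest of all 5 had 0.13 (limma adjusted p = 0.923). PRSS21, a membrane-anchored serine protease, and SLC38A5, an amino acid transporter, had differences of 2.01 and 2.08. The DMSO means of these 8 genes in BE(2)-C lay between 4.03 (HS3ST4) and 5.76 (SLC38A5), and in Kelly between 7.10 (HS3ST4) and 9.55 (HS6ST2). Each of the 8 kept its call without any 1 of the 12 arrays.

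Of the splicing regulators RBFOX1 and CELF2, RBFOX1 fell by 2.13 in Kelly and fell by 0.67 in BE(2)-C in the probe set read here, and CELF2 fell by 1.99 in Kelly, with line differences of 1.46 and 1.80; 3 of 9 and 3 of 10 probe sets passed. PTPRG, a receptor tyrosine phosphatase, and LTBR, the lymphotoxin beta receptor, had Kelly effects of -1.91 and -1.88, each in 1 probe set that was not the brightest, and line differences of 1.98 and 1.70. BOK, a pro-apoptotic relative of BCL2, was the 1 member of 16 BCL2 family genes, with effects of -1.66 in Kelly and -0.28 in BE(2)-C and a difference of 1.39 (SE 0.23, limma adjusted p = 0.0319). ABR fell by 2.66 in Kelly and by 1.05 in BE(2)-C from nearly equal DMSO levels of 10.00 in Kelly and 9.86 in BE(2)-C. DKK3, a secreted protein of the dickkopf family, had effects of -1.30 in Kelly and 0.20 in BE(2)-C; its other 5 probe sets had line differences from -0.39 to -0.14. The values of RBFOX1, PTPRG, LTBR and BOK were not from the brightest probe set, which gave a line difference of -0.41 for RBFOX1 (limma adjusted p = 0.668), 1.52 for PTPRG (limma adjusted p = 0.357), -0.27 for LTBR (limma adjusted p = 0.792) and 0.04 for BOK (limma adjusted p = 0.971). With the mean of the probe sets the calls ended (limma adjusted p in brackets) for RBFOX1 (0.0895), CELF2 (0.335), PTPRG (0.405), LTBR (0.397), BOK (0.678), ABR (0.298) and DKK3 (0.936). Leaving out 1 array ended the call (limma adjusted p in brackets) of CELF2 without BE(2)-C DMSO array 2 (0.0538). Most single omissions ended the calls of BOK (all but Kelly DMSO array 3, Kelly JQ1 array 3 and BE(2)-C DMSO array 1, limma adjusted p up to 0.117), ABR (all but Kelly DMSO array 3 and BE(2)-C DMSO array 1, limma adjusted p up to 0.16) and DKK3 (all but Kelly DMSO array 3, Kelly JQ1 arrays 1 and 3 and BE(2)-C DMSO array 1, limma adjusted p up to 0.105).

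Of 8 transcription regulators that fell in Kelly, 6 had DMSO levels above the median in both lines, while ZBTB20 and ZHX2 lay below it in BE(2)-C, at 5.73 and 5.29. KLF7, a zinc finger factor of sympathetic and sensory neurons, had DMSO levels of 9.54 in Kelly and 9.91 in BE(2)-C. Its effects were -1.65 in Kelly and 0.37 in BE(2)-C, a difference of 2.02 (SE 0.34, limma adjusted p = 0.0319). It was the 1 member of 21 adrenergic transcription factors, of which 6 fell in Kelly and 1 in BE(2)-C (over all genes 5.77% and 2.8%). The median line difference of the 21 was 0.12. MAML3, a coactivator of NOTCH, had effects of -1.65 in Kelly and -0.20 in BE(2)-C and a difference of 1.45 (SE 0.27, limma adjusted p = 0.0483), just inside the threshold. SALL4, a factor of embryonic stem cells, fell by 1.47 in Kelly from 9.58 and stayed near 6.25 in BE(2)-C. The zinc finger genes ZBTB38 and ZBTB20 had line differences of 2.20 and 2.09. ZHX2 and TSHZ2, homeobox proteins with zinc fingers, had 1.35 and 1.90, and KLF9, a glucocorticoid-responsive factor, had 1.98, with effects of -1.25 in Kelly and 0.73 in BE(2)-C. Read from the brightest probe set instead, the line difference was 0.73 for TSHZ2 (limma adjusted p = 0.446) and 0.99 for KLF9 (limma adjusted p = 0.184). Averaging all probe sets of the gene ended the calls (limma adjusted p in brackets) of KLF7 (0.195), MAML3 (0.752), TSHZ2 (0.372) and KLF9 (0.346). Calls were lost with 1 array left out (limma adjusted p in brackets) for ZHX2 without BE(2)-C DMSO array 2 and BE(2)-C JQ1 arrays 2 and 3 in turn (up to 0.0618), for TSHZ2 without Kelly DMSO array 1, Kelly JQ1 array 2, BE(2)-C DMSO array 3 and BE(2)-C JQ1 arrays 1, 2 and 3 in turn (up to 0.0754) and for KLF9 without Kelly DMSO array 1, Kelly JQ1 array 2, BE(2)-C DMSO array 2 and BE(2)-C JQ1 arrays 1 and 2 in turn (up to 0.0664). Omitting any of most single arrays ended the calls of KLF7 (all but Kelly DMSO array 3, Kelly JQ1 array 1 and BE(2)-C DMSO array 1, limma adjusted p up to 0.115), MAML3 (all but Kelly JQ1 array 3, limma adjusted p up to 0.178) and SALL4 (all but Kelly DMSO array 3 and BE(2)-C DMSO array 1, limma adjusted p up to 0.133). With most arrays omitted in turn the calls ended for ZBTB38 (all but Kelly DMSO array 3 and BE(2)-C DMSO array 1, limma adjusted p up to 0.151) and ZBTB20 (all but Kelly DMSO arrays 1 and 3, Kelly JQ1 array 3 and BE(2)-C DMSO array 1, limma adjusted p up to 0.119).

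Among the genes that fell in BE(2)-C, several went from a clear signal to near background while Kelly had little of them. RD3, a photoreceptor protein that controls guanylate cyclase, read 7.75, 8.37 and 8.09 with DMSO and 4.64, 4.65 and 4.72 with JQ1 in BE(2)-C. In Kelly it read 4.37, 4.11 and 4.91 (DMSO) and 4.31, 4.28 and 4.70 (JQ1). Its line difference of -3.37 (SE 0.31, limma adjusted p = 0.00117) was the lowest of the set, in 1 of 3 probe sets, all of the same sign; the brightest of them had -0.59 (limma adjusted p = 0.456). TSPAN8, a tetraspanin of the plasma membrane, read 7.17, 8.28 and 7.93 (DMSO) and 4.73, 5.14 and 4.25 (JQ1) in BE(2)-C. In Kelly its 6 arrays lay between 3.81 and 4.30, and the difference was -3.33 (SE 0.39, limma adjusted p = 0.00376). PPEF1, a serine/threonine phosphatase with calcium-binding EF hands, ARL9, a small GTPase of the ARF-like family, and RIN2, an adaptor of RAS and RAB5, fell in BE(2)-C as well. Their BE(2)-C effects were -3.13, -2.53 and -2.30 and their Kelly effects -0.24, 0.00 and -0.06. The line differences of these 3 were -2.89 (SE 0.35, limma adjusted p = 0.0049), -2.54 (SE 0.23, limma adjusted p = 0.00117) and -2.24 (SE 0.25, limma adjusted p = 0.00317).

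TUBA1C, an alpha-tubulin, differed from these in that Kelly had more of it. It read 12.71, 12.73 and 12.47 in Kelly with DMSO and 12.39, 12.20 and 12.31 with JQ1, against 9.14, 9.39 and 9.63 (DMSO) and 6.16, 6.47 and 5.48 (JQ1) in BE(2)-C. All BE(2)-C arrays were below all Kelly arrays before treatment, and JQ1 took them down by a further 3.36. TUBA1C had a line difference of -3.02 (SE 0.32, limma adjusted p = 0.00246), and its other probe set had -2.05 (adjusted p = 0.0552). Alpha-tubulin genes are close in sequence, and both probe sets are of the kind that can read related transcripts, so TUBA1C cannot be told apart from related tubulins here. It was the 1 member of 31 genes of axon growth and the neuronal cytoskeleton.

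ENG, ICAM2, ADAMTS1, DCN, RELN and GAS1, which encode proteins of the cell surface or the matrix, also fell in BE(2)-C. ENG, endoglin, a co-receptor of TGF-beta ligands, read 9.46, 9.63 and 9.20 with DMSO and 7.52, 7.38 and 7.51 with JQ1 in BE(2)-C and 7.21, 6.69 and 7.41 (DMSO) and 7.38, 7.53 and 6.96 (JQ1) in Kelly. JQ1 thus brought BE(2)-C to the level of the Kelly arrays. The line difference was -2.13 (SE 0.30, limma adjusted p = 0.0122), and 3 of its 5 probe sets passed. ICAM2, an adhesion molecule of endothelial cells and leukocytes, fell by 1.75 in BE(2)-C in the probe set read here, 1 of 2 that passed, and had a difference of -1.67 (SE 0.23, limma adjusted p = 0.0116). ADAMTS1, a secreted matrix metalloprotease, had a difference of -1.41 (SE 0.19, limma adjusted p = 0.00895) in its brighter probe set, while with the mean of its 2 probe sets the call ended (limma adjusted p = 0.17). DCN, the matrix proteoglycan decorin, went from 6.84 to 4.97 in BE(2)-C and lay at 4.86 in Kelly; it was the 1 member of the 15 Schwann cell and fibroblast markers, whose summed level was higher in every BE(2)-C array (11.06 to 11.66) than in any Kelly array (9.71 to 10.13); the part of these markers in the result was not tested. RELN, the matrix glycoprotein reelin, fell by 0.98 in BE(2)-C from 9.49, and was the 1 member of 37 collagen and matrix genes. Its Kelly effect was 0.43 from 4.84, a dim level. GAS1, a membrane protein that binds hedgehog ligands, fell by 0.77 in BE(2)-C from 6.21. In Kelly the GAS1 effect was 0.54 from 7.31, which did not pass although the Kelly groups did not overlap. In the brightest probe set, not the one read here, the line difference was -1.45 for ICAM2 (limma adjusted p = 0.16), -0.64 for RELN (limma adjusted p = 0.502) and -1.30 for GAS1 (limma adjusted p = 0.088). With the mean of the probe sets the call ended (limma adjusted p in brackets) for RELN (0.0848). Leaving out 1 array ended the call (limma adjusted p in brackets) of ENG without BE(2)-C DMSO array 2 (0.0514) and of DCN without Kelly DMSO array 1, BE(2)-C DMSO arrays 2 and 3 and BE(2)-C JQ1 arrays 2 and 3 in turn (up to 0.0612). Less stable were the calls lost with most single arrays omitted, those of RELN (all but Kelly DMSO array 3 and BE(2)-C DMSO array 1, limma adjusted p up to 0.165) and GAS1 (all but Kelly DMSO array 3, Kelly JQ1 array 3 and BE(2)-C DMSO array 1, limma adjusted p up to 0.125).

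Other members that fell in BE(2)-C have varied roles. SGK1, a kinase induced by glucocorticoids, fell by 1.47 from 10.06, against 5.68 and an effect of 0.50 in Kelly, and 3 of its 4 probe sets passed. The brightest had a difference of -1.97 (SE 0.31, limma adjusted p = 0.02). FGL1, a fibrinogen-like secreted protein, had effects of 0.71 in Kelly and -2.33 in BE(2)-C and a difference of -3.04 (SE 0.42, limma adjusted p = 0.0122). MBOAT4, the enzyme that attaches octanoate to ghrelin, and CRYGD, a crystallin of the eye lens, had differences of -2.04 and -1.77. ZNF503, a zinc finger regulator of development, was bright in both lines, with DMSO levels of 10.33 in Kelly and 9.18 in BE(2)-C and effects of 0.18 in Kelly and -1.23 in BE(2)-C. OAS1, an interferon-induced antiviral enzyme, was the 1 member of 28 interferon and antigen presentation genes, and was dim in both lines, at 4.78 in Kelly and 6.03 in BE(2)-C with DMSO. The value of OAS1 was not from the brightest probe set, which gave a line difference of -0.60 for OAS1 (limma adjusted p = 0.522). Averaging all probe sets of the gene ended the calls (limma adjusted p in brackets) of ZNF503 (0.336) and OAS1 (0.164). Calls were lost with 1 array left out (limma adjusted p in brackets) for FGL1 without BE(2)-C DMSO array 2 (0.0514), for MBOAT4 without Kelly DMSO array 1, BE(2)-C DMSO array 2 and BE(2)-C JQ1 arrays 1, 2 and 3 in turn (up to 0.0739) and for CRYGD without Kelly DMSO array 1, Kelly JQ1 array 2, BE(2)-C DMSO array 2 and BE(2)-C JQ1 arrays 1 and 2 in turn (up to 0.0663). Most single omissions ended the calls of SGK1 (all but Kelly DMSO arrays 2 and 3, Kelly JQ1 arrays 2 and 3 and BE(2)-C DMSO array 1, limma adjusted p up to 0.0826), ZNF503 (all but Kelly DMSO array 3 and Kelly JQ1 array 1, limma adjusted p up to 0.13) and OAS1 (all but Kelly DMSO array 3 and BE(2)-C DMSO array 1, limma adjusted p up to 0.151).

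Rises in BE(2)-C included 3 genes of the list of cell cycle brakes and p53 targets. TP53INP1, a p53-induced protein tied to autophagy and cell death, read 5.77, 6.11 and 6.75 in BE(2)-C with DMSO and 9.76, 9.85 and 9.17 with JQ1. In Kelly it read 8.69, 8.80 and 8.7 (DMSO) and 9.87, 9.79 and 9.76 (JQ1), so the lines started apart and ended at similar levels. It rose in both, and the line difference was 2.31 (SE 0.34, limma adjusted p = 0.0151) in the brighter of 2 probe sets, the other having -0.03. CCNG2, the cyclin that marks growth arrest, had effects of -0.34 in Kelly and 1.38 in BE(2)-C and a difference of 1.72 (SE 0.25, limma adjusted p = 0.0134). CDKN2B, the CDK4 and CDK6 inhibitor p15, rose by 1.72 from 4.16, a dim level, in the probe set read here; its brightest probe set went the other way, with effects of 0.89 in Kelly and -0.27 in BE(2)-C. In the brightest CCNG2 probe set the effects were 0.58 in Kelly and 1.40 in BE(2)-C. These were the 3 members of 20 cell cycle brakes and p53 targets. Of that list JQ1 raised 5 and lowered 0 in BE(2)-C, against 2 and 3 in Kelly. The shares of all genes were 2.27% raised with 2.8% lowered (BE(2)-C), and 1.95% raised with 5.77% lowered (Kelly). The list's median line difference was 0.28, against -0.06 for all genes, and the list as a whole was not tested. HBP1, a repressor of cell cycle genes, read 8.72, 8.98 and 9.06 (DMSO) and 10.12, 10.11 and 9.80 (JQ1) in BE(2)-C and 8.20, 8.29 and 8.23 (DMSO) and 7.79, 7.73 and 7.52 (JQ1) in Kelly. Its effects of -0.56 in Kelly and 1.09 in BE(2)-C had opposite signs, of which that in BE(2)-C passed, and the difference was 1.65 (SE 0.21, limma adjusted p = 0.00867). YPEL2, of a family of small zinc-binding proteins, had effects of -0.75 in Kelly and 1.54 in BE(2)-C and a difference of 2.29 (SE 0.28, limma adjusted p = 0.00547). HBP1 and YPEL2 were the 2 of the 17 genes called as rising in BE(2)-C alone that kept their call without any 1 of the 12 arrays. Read from the brightest probe set instead, the line difference was 0.82 for CCNG2 (limma adjusted p = 0.418) and -1.16 for CDKN2B (limma adjusted p = 0.399). With the mean of the probe sets the calls ended (limma adjusted p in brackets) for CCNG2 (0.134) and CDKN2B (0.487). Leaving out 1 array ended the call (limma adjusted p in brackets) of TP53INP1 without Kelly DMSO array 1, Kelly JQ1 array 2, BE(2)-C DMSO array 2 and BE(2)-C JQ1 arrays 1 and 2 in turn (up to 0.0665) and of CCNG2 without BE(2)-C DMSO array 2 (0.0613) and BE(2)-C JQ1 array 2 (0.0571). Omitting any of most single arrays ended the call of CDKN2B (all but Kelly DMSO array 3 and BE(2)-C JQ1 array 3, limma adjusted p up to 0.151).

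Histone genes were another list with rises. H3C10, which encodes a replication-dependent histone H3, read 6.02, 5.56 and 5.91 in BE(2)-C with DMSO and 8.86, 9.40 and 8.92 with JQ1. In Kelly it read 5.76, 5.63 and 5.92 (DMSO) and 7.11, 6.6 and 5.88 (JQ1), where the JQ1 arrays spread widely and 1 of them lay among the DMSO arrays. The difference was 2.47 (SE 0.39, limma adjusted p = 0.0206). H2BC21, a histone H2B gene, rose by 1.36 in Kelly and by 3.56 in BE(2)-C, a difference of 2.21 (SE 0.39, limma adjusted p = 0.0417) by the brightest of its 3 probe sets; the other 2 had -0.16. They were the 2 members of 29 histone genes measured, of which 8 rose in Kelly and 13 in BE(2)-C (over all genes 1.95% and 2.27%). The median line difference of the 29 was 0.10. Several probe sets of this family can read more than 1 histone gene. Averaging all probe sets of the gene ended the call (limma adjusted p in brackets) of H2BC21 (0.124). With most arrays omitted in turn the calls ended for H3C10 (all but Kelly DMSO arrays 2 and 3, Kelly JQ1 arrays 1 and 3 and BE(2)-C DMSO array 1, limma adjusted p up to 0.0738) and H2BC21 (all but Kelly DMSO array 3, Kelly JQ1 array 1, BE(2)-C DMSO array 1 and BE(2)-C JQ1 array 3, limma adjusted p up to 0.137).

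SLC66A3, KLF2, TXNIP, BNIP3L, PPARA and PNRC1 rose in BE(2)-C as well. SLC66A3, a membrane protein of the PQ-loop family, rose by 2.53 from a low 4.70, against -0.11 in Kelly, a difference of 2.65 (SE 0.37, limma adjusted p = 0.0122). KLF2, a transcription factor of the immediate-early list, had effects of 0.54 in Kelly and 2.16 in BE(2)-C and a difference of 1.63 (SE 0.27, limma adjusted p = 0.0299), from DMSO levels of 5.61 in Kelly and 8.48 in BE(2)-C. TXNIP, which inhibits thioredoxin and glucose uptake, and BNIP3L, a receptor for the removal of mitochondria, rose by 1.83 and 1.71 in BE(2)-C and had 0.57 and 0.53 in Kelly, at bright levels in both lines. The passing TXNIP probe sets numbered 3 of 5, with line differences of 1.14 to 1.69, and the brightest had 1.52 (adjusted p = 0.17). PPARA, a nuclear receptor of fatty acids, had effects of -0.49 in Kelly and 0.92 in BE(2)-C, and PNRC1, a coactivator of nuclear receptors, of 0.43 in Kelly and 2.07 in BE(2)-C. With the mean of the probe sets the calls ended (limma adjusted p in brackets) for BNIP3L (0.317) and PPARA (0.47). Calls were lost with 1 array left out (limma adjusted p in brackets) for SLC66A3 without BE(2)-C DMSO array 2 (0.0514) and for PPARA without BE(2)-C DMSO arrays 2 and 3 and BE(2)-C JQ1 arrays 1, 2 and 3 in turn (up to 0.0712). Less stable were the calls lost with most single arrays omitted, those of KLF2 (all but Kelly DMSO arrays 2 and 3 and BE(2)-C DMSO array 1, limma adjusted p up to 0.112), TXNIP (all but Kelly DMSO array 3, limma adjusted p up to 0.157) and BNIP3L (all but Kelly DMSO array 3 and BE(2)-C DMSO array 3, limma adjusted p up to 0.165). Most single omissions ended the call of PNRC1 (all but Kelly DMSO array 3 and BE(2)-C DMSO arrays 1 and 3, limma adjusted p up to 0.158).

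Only 6 genes rose in Kelly without passing in BE(2)-C, of which 5 are described. PCDH9, a protocadherin of neuronal contacts, read 8.74, 8.83 and 8.60 in Kelly with DMSO and 10.46, 10.27 and 10.41 with JQ1, and 11.76, 11.93 and 11.85 (DMSO) and 11.77, 11.74 and 11.67 (JQ1) in BE(2)-C. The rise in Kelly went part of the way to the level that BE(2)-C held in both groups. The difference was -1.77 (SE 0.18, limma adjusted p = 0.00243), but with the mean of its 3 probe sets the call ended (limma adjusted p = 0.269). ID1 and ID4, inhibitors of basic helix-loop-helix factors that BMP signals induce, rose by 0.97 and 1.66 in Kelly, with -0.16 and 0.15 in BE(2)-C. ID1 had DMSO levels of 9.89 in Kelly and 11.15 in BE(2)-C, while ID4 had 6.58 and 4.51 and was dim in BE(2)-C. They were the 2 members of 31 BMP and TGF-beta genes. EFNB2, the ephrin ligand that marks arteries, had effects of 1.67 in Kelly and 0.18 in BE(2)-C, and SERPINE2, a secreted inhibitor of thrombin and plasminogen activators, of 1.54 in Kelly and 0.15 in BE(2)-C, with line differences of -1.49 and -1.39. In the brightest probe set, not the one read here, the line difference was -0.85 for ID1 (limma adjusted p = 0.314), -0.93 for ID4 (limma adjusted p = 0.246) and -1.05 for EFNB2 (limma adjusted p = 0.537). Averaging all probe sets of the gene ended the calls (limma adjusted p in brackets) of ID1 (0.154), ID4 (0.0582), EFNB2 (0.274) and SERPINE2 (0.141). Omitting any of most single arrays ended the calls of ID1 (all but Kelly DMSO array 3 and BE(2)-C DMSO array 1, limma adjusted p up to 0.137), ID4 (all but Kelly JQ1 array 3, limma adjusted p up to 0.167) and EFNB2 (all but Kelly DMSO array 3, Kelly JQ1 array 3, BE(2)-C DMSO array 1 and BE(2)-C JQ1 array 3, limma adjusted p up to 0.109). With most arrays omitted in turn the call ended for SERPINE2 (all but Kelly DMSO array 3, Kelly JQ1 array 3 and BE(2)-C DMSO arrays 1 and 3, limma adjusted p up to 0.0873).

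The list of BET proteins and P-TEFb regulators and that of the MYC network held 0 members. MYCN, the amplified oncogene in the title of the study, was read from the brightest of its 4 probe sets. That set had effects of -0.34 in Kelly and -0.33 in BE(2)-C. Its line difference was 0.02 (SE 0.17, limma adjusted p = 0.972), whose sign turned with quantile normalization. The next brightest changed by -0.05 (Kelly) and -0.32 (BE(2)-C). A set with a mean level of 12.15 changed by -0.77 (Kelly) and -1.03 (BE(2)-C). The dimmest, at 7.42, changed by -0.55 (Kelly) and -0.99 (BE(2)-C). The line differences of these dimmer sets were -0.27, -0.26 and -0.44, and none passed. HEXIM1, which keeps P-TEFb inactive and commonly rises with BET inhibitors, had effects of 1.43 in Kelly and 2.22 in BE(2)-C and a difference of 0.79 (SE 0.24, limma adjusted p = 0.286). SERPINI1, the inhibitor neuroserpin, had 0.22, and the BET genes BRD2 and BRD3 had 0.11 and 0.05, both below 0 with quantile normalization. A line difference that does not pass does not show that the lines responded alike. Of 13 genes of BET proteins and P-TEFb regulators 5 rose in Kelly and 3 in BE(2)-C, with a median line difference of 0.11. Of 12 genes of the MYC network 0 and 1 rose, respectively. In the BET and P-TEFb list 1 gene fell in Kelly and 0 in BE(2)-C, and in the MYC network 0 and 1 fell. Over all genes 1.95% rose in Kelly and 2.27% in BE(2)-C, and 5.77% fell in Kelly and 2.8% in BE(2)-C. The lists of ribosome biogenesis (29 measured, median line difference -0.14), DNA replication (34, -0.39) and mitosis (29, -0.13) held 0 members too, against a median of -0.06 over all genes. In DNA replication 1 gene fell in Kelly and 8 in BE(2)-C (over all genes 5.77% and 2.8%), a contrast of calls whose difference did not pass in any single gene. Potassium channels (34), synaptic vesicle genes (34), HOX genes (23) and granins (12) also held 0. In all, 33 of the 116 members were in at least 1 of the 42 lists.

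How firmly the members stand depends on the probe set and on single arrays. The brightest probe set of the gene passed in 78 of the 116 members; of the other 38 it had the same sign in 34. Of 92 members with several probe sets 56 had all of them on the same side, and in 20 at least 2 passed. When each of the 12 arrays was left out in turn, 28 members passed every time and 88 failed at least once, 68 of them with 6 or more of the arrays. The 28 were 14 of the 57 that fell in Kelly, 8 of the 27 that fell in BE(2)-C, 2 of the 17 that rose there, 1 of the 6 that rose in Kelly and 3 of the 7 that fell in both. Probe sets passing numbered 38 without BE(2)-C DMSO array 2 and 355 without Kelly DMSO array 3. Of the 147, 38 and 142 were among these. Just inside the threshold lay ID4, MAML3 and SERPINE2 (a second probe set), at adjusted p of 0.0466 to 0.0489, and just outside lay DHRS12, DUSP2 and RAP1GAP2, at 0.0508 to 0.0514.

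**Figure D4:**
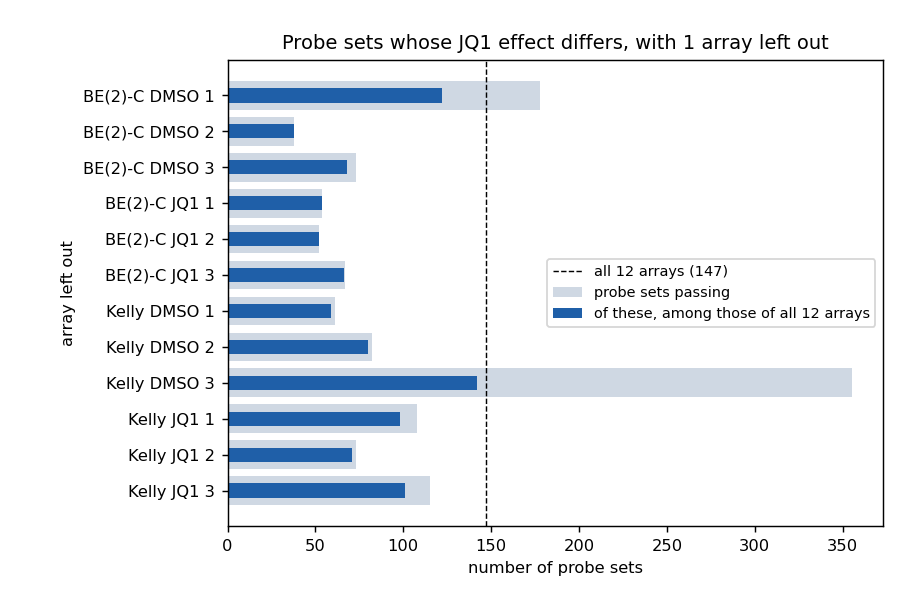
Number of probe sets whose line difference passed (limma adjusted p under 0.05) with the array named on the y axis left out: all that passed (pale bars) and those among the 147 of the full set (dark bars), with the full count as a dashed line. The counts run from 38 without BE(2)-C DMSO array 2 to 355 without Kelly DMSO array 3, and 10 of the 12 bars end below 147.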

How the data were processed

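RNA of 12 samples (Kelly and BE(2)-C cells after 24 h in DMSO or in 1 µM JQ1, 3 of each kind) was labelled with biotin and read on PrimeView 3' arrays, per the labels' protocols. The values the authors deposited are intensity on a linear scale, summarised with RMA per the submitters' processing notes (version not given in the sources used here), so log2 was taken with no offset. Probe sets were named through the platform annotation: of 49395, 102 were controls, 1832 named several genes, 2473 named none and 44988 named 1 gene. Group means were fitted with limma 3.58.1 in R 4.3.3 over all 12 arrays; two-sided p-values were adjusted by Benjamini-Hochberg over the 44988. The test was checked on simulated data with known changes, in which each probe set varied independently. That check does not cover variation shared by the probe sets of an array.

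A gene is a member when at least 1 probe set passes and none passes the other way, and is read from its brightest probe set, or from its brightest passing one where the brightest does not pass. The rule for named genes first took candidates whose brightest probe set passed. These had at least as many probe sets on that side as on the other, and no overlap of JQ1 and DMSO arrays in the line with the larger effect. From them came the 12 highest and 12 lowest line differences and up to 10 of opposite sign. Up to 4 members of each of 42 lists were added by a passing brightest probe set alone. Among these, DKK3, EFNB3 and H2BC21 had most of their probe sets on the other side. MYCN, BRD2, BRD3, HEXIM1 and SERPINI1 were taken whether they passed or not, which made 41 genes in all. Another 46 members, and the genes beside the threshold, were named after their values were seen. The members and lists were chosen with earlier results of these data known. The alternatives were other scalings, priors, filters and probe set summaries, a control covariate, a replicate block and each array left out. Promoters came from RefSeq (GRCh38.p14).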

Additional observations from a re-analysis of the deposited data

Results flagged for a closer look

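The JQ1 effect differed between the lines by the test of that difference in the members described above, and each is listed again with its line difference (log2, BE(2)-C effect minus Kelly effect). No group had 4 or more arrays, so single arrays were not tested as outliers. Among genes that fell in Kelly the difference was widest in OPRL1 (3.85), SST (3.5), MAOA (3.36), TNS3 (3.28), ANXA2P2 (3.14), CARTPT (2.99), TCEA3 (2.91), ANXA2 (2.79), HS3ST4 (2.58), TESC (2.47), HS6ST2 (2.47) and TG (2.40). It was intermediate in RIMBP2 (2.38), ZBTB38 (2.20), HTR3A (2.11), ZBTB20 (2.09), SLC38A5 (2.08), KLF7 (2.02), PRSS21 (2.01), RET (1.99), KLF9 (1.98), PTPRG (1.98), TSPO (1.93) and CACNA2D2 (1.91), and narrowest in TSHZ2 (1.90), CELF2 (1.80), GFRA1 (1.77), DOC2B (1.71), ANXA11 (1.71), LTBR (1.70), SALL4 (1.55), DKK3 (1.5), MAML3 (1.45), BOK (1.39), ZHX2 (1.35), CHRNA3 (1.34) and EFNB3 (1.11). Genes that fell in BE(2)-C were RD3 (-3.37), TSPAN8 (-3.33), FGL1 (-3.04), TUBA1C (-3.02), PPEF1 (-2.89), ARL9 (-2.54), RIN2 (-2.24), ENG (-2.13), MBOAT4 (-2.04), SGK1 (-1.97), IGFBP3 (-1.96), DCN (-1.95), CRYGD (-1.77), ICAM2 (-1.67), ADAMTS1 (-1.41), ZNF503 (-1.41), OAS1 (-1.41), RELN (-1.40) and GAS1 (-1.32). Genes that rose in BE(2)-C were SLC66A3 (2.65), H3C10 (2.47), YPEL2 (2.29), CDKN2B (1.72), CCNG2 (1.72), PNRC1 (1.65), HBP1 (1.65), KLF2 (1.63), PPARA (1.41), SCN9A (1.37), TXNIP (1.25) and BNIP3L (1.18), and genes that rose in Kelly were PCDH9 (-1.77), ID4 (-1.51), EFNB2 (-1.49), SERPINE2 (-1.39) and ID1 (-1.12). Genes that fell in both lines by different amounts were IGFBP5 (2.77), P2RY6 (-2.02), P2RX5 (1.93), TH (1.63), ABR (1.61), RBFOX1 (1.46) and PRIMA1 (1.36), and those that rose in both were TP53INP1 (2.31) and H2BC21 (2.21).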

How the results depend on the processing

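The line difference was called in 147 probe sets; 187 were called with quantile normalization, 136 with each array centred on its median, 127 with a trend and robust prior and 144 with a filter on dim probe sets. With 1 value a gene the counts were 101 (brightest probe set) and 99 (mean of the probe sets, 92 past 2-fold), over fewer tests. With the hybridization control signal as a covariate 1029 passed (721 past 2-fold), in Kelly 4116 and in BE(2)-C 5281. Leaving out 1 array gave 38 to 355 for the line difference (38 to 352 past 2-fold), 852 to 3843 against 1958 in Kelly and 426 to 1804 against 1263 in BE(2)-C; the cause was not tested. The Kelly effect passed in 1178 and 1033 genes with the brightest and the mean of the probe sets, the BE(2)-C effect in 825 with the mean. Of the 82 named genes that passed, 32 lost the call with the mean of the probe sets, 18 with the trend and robust prior, 11 with quantile normalization, 12 with median centring and 3 with the filter, and none with the covariate. Those lost with quantile normalization were EFNB3, MAML3, TSPO, BNIP3L, ID1, SCN9A, ABR, SALL4, ZBTB20, ZNF503 and PPARA (limma adjusted p up to 0.0908). The prior ended the calls of EFNB3, MAML3, DKK3, KLF2, TXNIP, BNIP3L, SERPINE2, ID4 and EFNB2. It also ended those of ANXA11, SCN9A, RELN, PRIMA1, ABR, SALL4, GAS1, ZNF503 and PPARA. With the brightest probe set per gene 21 lost the call and 3 changed sign, LTBR (-0.2684), RBFOX1 (-0.4111) and CDKN2B (-1.1607); under the other alternatives run 0 of the 82 changed sign. The replicate numbers were not shown to pair the samples: residuals of same-numbered DMSO and JQ1 arrays correlated across probe sets at 0.42, 0.227 and 0.509 in Kelly and at -0.0354, 0.537 and -0.749 in BE(2)-C. With different numbers they ran from -0.536 to 0.43 in Kelly and from -0.79 to 0.795 in BE(2)-C. The ACTB 3' minus 5' signal of same-numbered Kelly arrays was 1.24 and 1.25, 1.55 and 1.65, and 2.22 and 2.24. In BE(2)-C it was 1.24 and 0.99, 0.63 and 0.85, and 0.87 and 0.83. Whether same-numbered arrays were handled together was not tested. A fit with a replicate block called 119 probe sets, 86 of them among the 147, and ended 33 of the named calls. Among these were ENG (limma adjusted p = 0.0596) and ICAM2 (limma adjusted p = 0.0655). Signs turned in line differences that had not passed: MYCN with quantile normalization (-0.0428) and the mean of probe sets (-0.2407), BRD3 with these (-0.1023 and -0.0361) and with the covariate (-0.0045), and BRD2 with quantile normalization (-0.0335) and the covariate (-0.0084). With 1 array left out these genes ranged from -0.0216 to 0.056 (MYCN), -0.128 to 0.1501 (BRD3), -0.0271 to 0.3025 (BRD2) and -0.003 to 0.4694 (SERPINI1).

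With 3 arrays a group every difference that passed was past 2-fold, and many genes were near background in 1 line, so that the size of a line difference there depends on a level that was hardly measured. Arrays give no count of molecules, and near-equal medians after normalization leave a change of total RNA unmeasured.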
